A study of Homo sapiens with 10 samples.

Results

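The S100 genes encode small calcium-binding proteins, and 10 of them are described here: S100A2, S100A3, S100A4, S100A6, S100A10, S100A11, S100A13, S100A14, S100A16 and S100P. They are 10 of the 58735 lines of a count table and were chosen by gene symbol, with the difference between the groups already known, so their values in that comparison are given as a description and no p-value is printed for them. Cells labelled HCMECs, brain endothelial cells recorded as a cell line, received either a control small interfering RNA (siCtrl, 5 libraries) or one against USP9X (siUSP9X, 5 libraries). USP9X encodes a deubiquitinase, an enzyme that takes ubiquitin off other proteins. Transfection lasted 48 h and was followed by 12 h of Wnt3a, a Wnt ligand, in both groups. Cells without Wnt3a were not analysed here, so each difference below is one between siRNAs in Wnt3a-treated cells.

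S100 proteins carry a pair of EF-hands, loops that hold calcium, and mostly work as dimers. On binding calcium most of them open a surface that grips a partner, often an annexin, a cytoskeletal protein or a receptor such as RAGE. S100A10 is the exception that has lost calcium binding and sits instead in a constitutive complex with annexin A2, which on endothelium gathers tissue plasminogen activator and plasminogen. S100A8, S100A9 and S100A12 are proteins of myeloid cells, and S100B is a marker of astrocytes.

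Library totals, in units of 1e+06 counts, ran from 15.96 to 26.47. USP9X, the targeted gene, had 415, 283, 330, 324 and 351 CPM (counts per 1e+06 counts, scaled by TMM factors) in siCtrl replicates 1 to 5 and 36.5, 68.7, 27.5, 22.3 and 20.7 CPM in siUSP9X replicates 1 to 5. The groups did not overlap, and the log2 fold change was -3.28 ± 0.32 (SE, edgeR quasi-likelihood test, adjusted p = 0.000403), or -3.67 without siUSP9X replicate 2. The library of siUSP9X replicate 2 stood apart. Its reads held 2.15% ribosomal protein mRNA, which is short, where the 9 other libraries held 4.48 to 6.45%. Defining endothelial markers were near 0, with 8 counts of PECAM1 in each group and 4 and 2 of KDR, while ESAM and ENG had siCtrl means of 161 and 84.0 CPM. Summed markers of leukocytes, fibroblasts, mural cells and neural cells each stayed at or under 7.69 CPM in every library. The 16 endothelial markers summed to 322 to 397 CPM in siCtrl and 159 to 366 CPM in siUSP9X libraries. Epithelial markers summed to more, 3320 to 4180 CPM in siCtrl and 2035 to 2759 CPM in siUSP9X libraries, mainly from KRT8 and KRT18. Fewer cells with a transcript and less of it per cell cannot be told apart in such bulk libraries. Separate cultures are not stated for the replicates, so p-values rest on a spread among libraries that may be technical alone.

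Of the 10 genes, 9 lie on chromosome 1 between 151982915 and 153631360 (GRCh38, GENCODE release 29), all on the minus strand, and S100P lies on chromosome 4. S100A10 (151982915 to 151994390) and S100A11 (152032506 to 152047907) form a pair of neighbours. The other 7 are packed further along, in the order S100A6 (153534599 to 153536244), S100A4 (153543613 to 153550136), S100A3 (153547329 to 153549372), S100A2 (153561108 to 153567890), S100A16 (153606886 to 153613145), S100A14 (153614255 to 153616986) and S100A13 (153618787 to 153631360). S100A3 lies inside the annotated span of S100A4 with 0 shared exon bases. S100A13 shares 536 exon bases with AL162258.1 on the same strand, a processed transcript with 29 counts over the 10 libraries, and 235 with S100A1 on the opposite strand, with 123 counts. The library kit keeps strand, but the sources used here do not say whether the counting used it, so reads in either stretch cannot be assigned with certainty.

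Upstream sequences of 4 genes are shown because these genes differed most in what they did: S100A2, S100A3 and S100A10 had the lowest fold changes of the family, and S100A11, the neighbour of S100A10, had the highest, at -0.070 with all libraries and 0.15 without siUSP9X replicate 2. Each is the 250 bases before an annotated transcription start, 5′ to 3′ on the gene's strand, from RefSeq on GRCh38.p14, at chr1:153565845-153566094 for S100A2, chr1:153549259-153549508 for S100A3, chr1:151993860-151994109 for S100A10 and chr1:152037005-152037254 for S100A11. S100A2 has another annotated start, with upstream bases at chr1:153563888-153564137, which are not printed and held no match. Counts per gene do not show which start the cells used. Capitals mark matches to the words searched for on both strands, which were the AP-1 word TGANTCA, the TATA box TATAAA, the TCF/LEF word CTTTGAN, the CCAAT box CCAAT and the Sp1 word GGGCGG.
S100A2: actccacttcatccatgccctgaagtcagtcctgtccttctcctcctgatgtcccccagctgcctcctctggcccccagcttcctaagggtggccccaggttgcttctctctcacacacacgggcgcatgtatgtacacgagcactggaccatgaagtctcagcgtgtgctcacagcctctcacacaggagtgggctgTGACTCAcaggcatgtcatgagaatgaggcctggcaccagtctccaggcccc
S100A3: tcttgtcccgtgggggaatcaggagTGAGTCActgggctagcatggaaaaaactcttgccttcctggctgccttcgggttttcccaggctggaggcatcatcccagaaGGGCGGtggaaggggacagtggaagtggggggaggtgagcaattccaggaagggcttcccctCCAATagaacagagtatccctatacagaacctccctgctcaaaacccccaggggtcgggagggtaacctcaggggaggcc
S100A10: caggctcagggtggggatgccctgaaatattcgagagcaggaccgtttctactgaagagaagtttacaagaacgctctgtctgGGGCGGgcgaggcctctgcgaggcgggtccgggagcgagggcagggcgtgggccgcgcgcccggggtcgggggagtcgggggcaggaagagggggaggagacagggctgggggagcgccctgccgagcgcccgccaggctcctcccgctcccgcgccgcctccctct
S100A11: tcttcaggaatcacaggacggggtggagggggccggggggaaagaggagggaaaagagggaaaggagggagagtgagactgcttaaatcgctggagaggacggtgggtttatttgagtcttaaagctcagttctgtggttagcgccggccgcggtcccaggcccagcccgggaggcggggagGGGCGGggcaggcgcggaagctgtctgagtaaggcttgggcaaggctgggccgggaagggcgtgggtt

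RefSeq gives 14 start windows, from 250 bases before to 50 after the start, for the 10 genes. The AP-1 word was found in 2 of them, at -52 from one of the annotated starts of S100A2 and at -225 from the S100A3 start, and in 7.73% of all 34796 windows of that length. The TATA box was found in 3, those of S100A4, S100P and 1 start of S100A13, and in 11.6% of all windows. GGGCGG was found in 6 of the 14 and in 44.9% of all, including S100A6, S100A10 and S100A11, and CCAAT in 3 and in 34.6% of all. The TCF/LEF word was found in 0 of the 14 and in 12.8% of all. A match is a string of letters and says nothing of binding, and its absence holds only for these windows.

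In siCtrl cells the family covered a wide range of levels. Per kilobase of annotated exon, S100A11 stood at 681 ± 29.1 and S100A6 at 602 ± 96.1 CPM per kb (SD, n = 5), with overlapping libraries (648 to 725 and 487 to 753), so their order is not set, and with the longest transcript as the length S100A6 came first (869 ± 139 against 780 ± 33.3). S100A10 followed at 257 ± 23.4 and S100A16 at 147 ± 20.5 CPM per kb, each apart from its neighbours in every library. A large step lay below these 4, with S100A2 at 22.1 ± 3.52 and S100A13 at 14.9 ± 1.95, whose libraries overlapped (17.1 to 27.1 and 12.6 to 17.7). S100A3 stood at 6.06 ± 1.70 and S100A4 at 0.663 ± 0.0927 CPM per kb. In siUSP9X cells the one exchange of neighbours by mean was that of S100A2 and S100A13, at 4.84 ± 2.08 and 9.65 ± 4.6 CPM per kb, again with overlapping libraries. That overlap came from siUSP9X replicate 2 alone, and without it the means were 5.51 and 11.6 CPM per kb.

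Of the 10 genes, 8 passed the filter on low counts, and S100A14 and S100P did not. The log2 fold change was below 0 for 8 of the 8 with all libraries and for 6 without siUSP9X replicate 2. The threshold for a call was an adjusted p under 0.05 over all tested genes with edgeR. With all libraries it was met by 1 of the 8, S100A2, which was lower, beside 7.31% of all 13934 tested genes (3.22% lower and 4.09% higher). Without siUSP9X replicate 2 it was met by 4 of the 8, S100A2, S100A3, S100A10 and S100A13, each lower, beside 23.4% of 14086 genes (11.5% lower and 11.9% higher). S100A3 also met it without siCtrl replicate 1, beside 389 genes higher and 375 lower of 14080 tested. Without siUSP9X replicate 3 it did so too, beside 345 higher and 279 lower of 14138. When each library was dropped in turn, S100A3 passed 3 times in 10. The libraries of the groups did not overlap for 2 of the 8, S100A2 and S100A10, each with siUSP9X below, beside 14.6% of all tested genes (6.85% with siUSP9X below and 7.79% above). The median log2 fold change of the 8 was -0.63 with all libraries and -0.33 without siUSP9X replicate 2. For all tested genes it was 0.026 and 0.0070, but it moved with transcript length. Tested genes with a longest transcript of up to 1000 bases had medians of -0.177 and -0.09. Those in the next bin, up to 2000 bases, had -0.168 and -0.067, and those over 8000 bases 0.377 and 0.14. The S100 transcripts are short, so the median of all tested genes overstates how far the 8 stood apart. Since the members were listed with these values known, nothing is read from the counts.

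**Figure D1:**
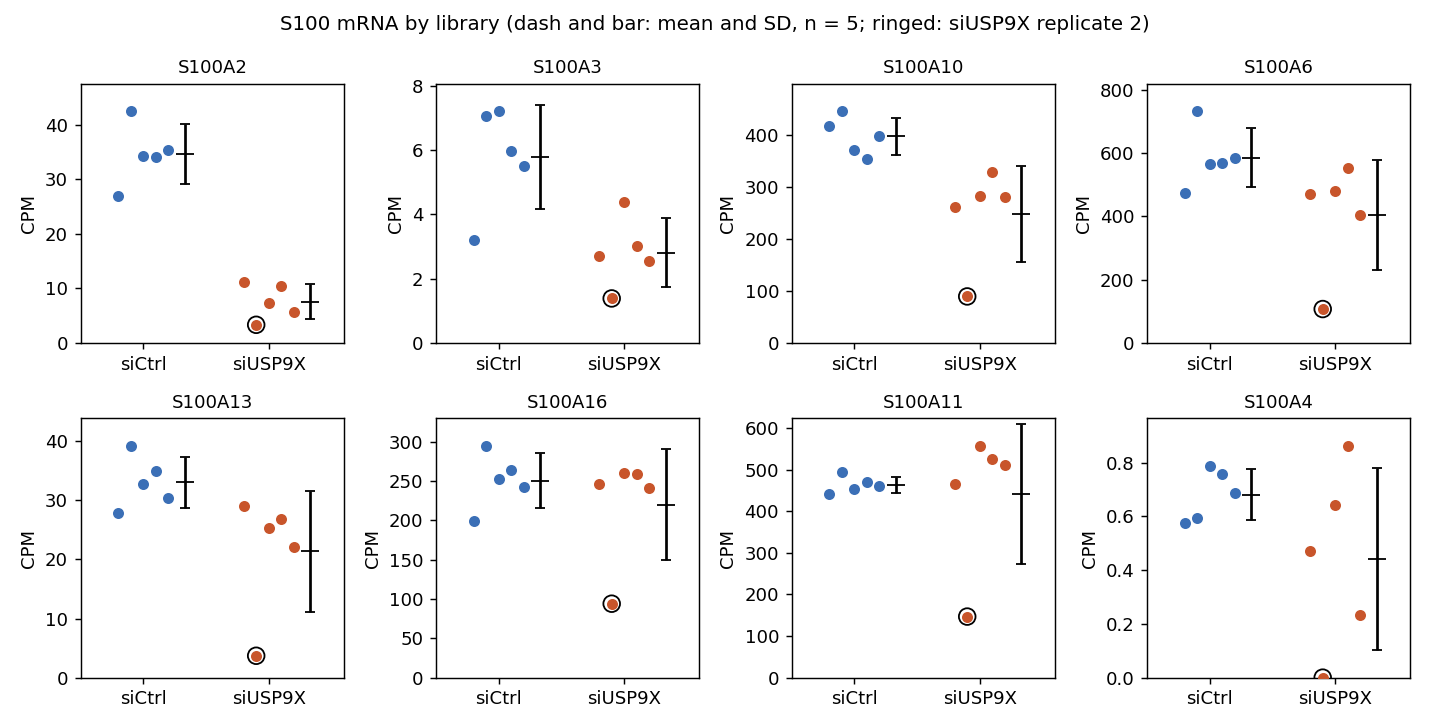
CPM of the 8 tested S100 genes in each library (points, siCtrl blue, siUSP9X orange), with the mean and SD of 5 libraries as dash and bar, each panel on its own linear axis from 0. The groups are apart for S100A2 and S100A10, and the ringed library, siUSP9X replicate 2, is the lowest of all 10 in each of the 8 panels.

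S100A2, a nuclear S100 protein known mainly from epithelial cells and as a p53 target, differed most. It had 26.8, 42.4, 34.3, 34.1 and 35.3 CPM in siCtrl replicates 1 to 5 and 11.2, 3.32, 7.26, 10.4 and 5.75 CPM in siUSP9X replicates 1 to 5. The groups did not overlap, the highest siUSP9X library being at 11.2 CPM and the lowest siCtrl library at 26.8. The means were 34.6 ± 5.52 and 7.58 ± 3.25 CPM (SD, n = 5 each), a 4.57-fold lower level and a log2 fold change of -2.19 ± 0.28 (SE). Without siUSP9X replicate 2 it was 4.0-fold lower (-2.0 ± 0.17). With any 1 library left out the log2 fold change lay between -2.37 and -2.0. The summed CPM of 10 epithelial markers was also lower, at 3320 to 4180 in siCtrl and 2035 to 2759 in siUSP9X libraries. It was made up mainly of KRT8 (means of 2153 and 1579 CPM) and KRT18 (1578 and 945 CPM), so it does not describe the whole list. Of the 10, 5 were tested and 2 passed the threshold, beside 7.31% of all tested genes, and KRT5 and KRT14 had 0 counts. The part of these markers in the S100A2 difference was not tested.

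S100A3, a cysteine-rich member best known from hair follicles, lies next to S100A2 on the chromosome and had the next lowest fold change. Its values were 3.19, 7.07, 7.20, 5.98 and 5.51 CPM in siCtrl replicates 1 to 5 and 2.70, 1.38, 4.39, 3.02 and 2.55 CPM in siUSP9X replicates 1 to 5. siCtrl replicate 1 lay below siUSP9X replicate 3, so the groups overlapped. The log2 fold change was -1.04 ± 0.29 with all libraries, -0.87 ± 0.22 without siUSP9X replicate 2, -1.20 without siCtrl replicate 1 and -1.26 without siUSP9X replicate 3. The counts behind it were 25 to 158 per library.

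S100A10, the partner of annexin A2 also called p11, was the other member whose groups did not overlap. It had 416, 445, 370, 354 and 398 CPM in siCtrl replicates 1 to 5 and 260, 89.3, 282, 329 and 279 CPM in siUSP9X replicates 1 to 5. The nearest libraries were siCtrl replicate 4 at 354 and siUSP9X replicate 4 at 329 CPM. Its log2 fold change was -0.68 ± 0.27 over the 10 libraries and -0.46 ± 0.085 when siUSP9X replicate 2, the lowest, was left out.

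S100A6, or calcyclin, a regulator of proliferation and cytoskeletal partners, had the highest mean CPM of the members in siCtrl, whereas S100A11 had the highest in siUSP9X. It had 472, 732, 565, 570 and 585 CPM in siCtrl replicates 1 to 5 and 470, 107, 479, 554 and 406 CPM in siUSP9X replicates 1 to 5. siCtrl replicate 1 lay below siUSP9X replicates 3 and 4, so the groups overlapped. The log2 fold change was -0.54 ± 0.33 with all libraries and -0.29 ± 0.11 without siUSP9X replicate 2.

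S100A13, which takes part in the export of FGF1 and interleukin 1 alpha from cells, was much lower in 1 library than in the other siUSP9X libraries. The values were 27.9, 39.2, 32.7, 35.0 and 30.4 CPM in siCtrl replicates 1 to 5 and 29, 3.71, 25.4, 26.8 and 22.1 CPM in siUSP9X replicates 1 to 5. Apart from replicate 2 at 3.71 CPM, 1 siUSP9X library lay above the lowest siCtrl library and 3 lay below it. The log2 fold change was -0.63 ± 0.39 with all libraries and -0.36 ± 0.11 without replicate 2.

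For S100A11 and S100A16, 4 of the 5 siUSP9X libraries lay above the lowest siCtrl library. S100A11, which binds annexin A1 and acts in membrane repair, had 441, 493, 454, 470 and 460 CPM in siCtrl replicates 1 to 5 and 466, 147, 556, 526 and 512 CPM in siUSP9X replicates 1 to 5. Its log2 fold change was -0.070 ± 0.28 with all libraries and 0.15 ± 0.070 without siUSP9X replicate 2. S100A16, a widely expressed member, had 199, 294, 253, 264 and 242 CPM in siCtrl replicates 1 to 5 and 246, 94.0, 260, 259 and 241 CPM in siUSP9X replicates 1 to 5. For S100A16 the log2 fold changes were -0.19 ± 0.24 with all libraries and 0.0080 ± 0.090 without that library. Neither value shows that the groups were alike.

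**Figure D2:**
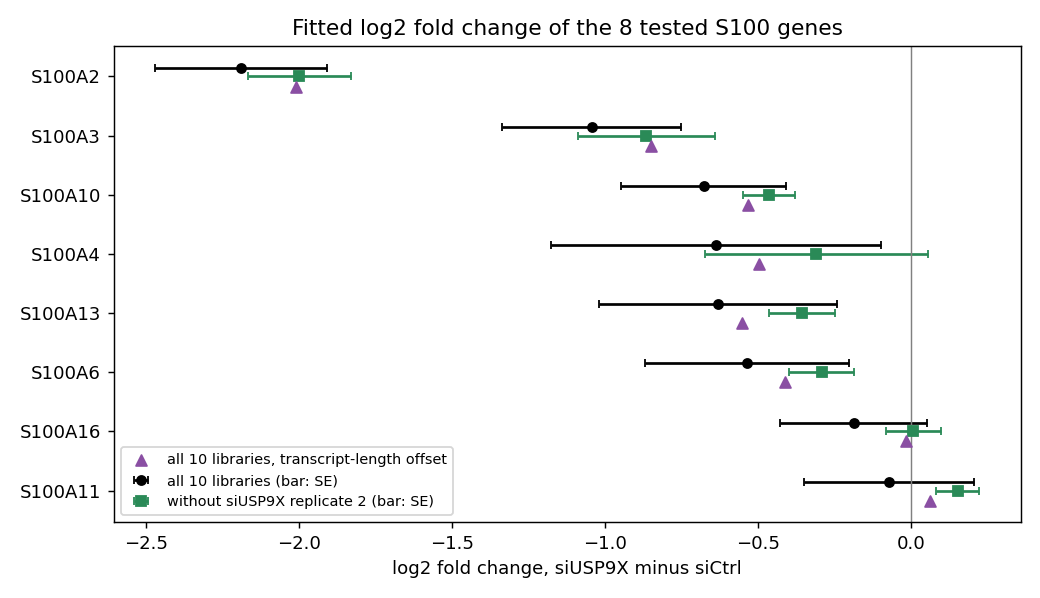
Log2 fold change (siUSP9X minus siCtrl) of the 8 tested S100 genes from edgeR with all 10 libraries (circles) and without siUSP9X replicate 2 (squares), with SE as bars, and with an offset for transcript length (triangles, no error shown). S100A2 stays near -2 in each of the 3 fits (-2.19, -2.0 and -2.01), while S100A11 is on either side of 0 (-0.070, 0.15 and 0.063).

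The low members can be given as pooled counts, with exact 95% Poisson intervals that cover counting error only. S100A4, a protein of motile and mesenchymal cells also called FSP1, had 69 counts in the 5 siCtrl libraries (0.685 CPM, 0.533 to 0.866) and 37 in siUSP9X (0.432 CPM, 0.304 to 0.595). Single libraries held 11 to 20 and 0 to 14 counts, and the log2 fold change was -0.64 ± 0.54, or -0.31 ± 0.36 without siUSP9X replicate 2, -1.02 without siUSP9X replicate 4 and -1.26 with limma-voom. S100A14, an epithelial member, had 15 pooled counts in each group (0.149 CPM, 0.0833 to 0.245, and 0.175 CPM, 0.0980 to 0.289). S100P, first found in placenta, had 0 counts in all 10 libraries, which allows up to 0.0298 CPM in siCtrl and 0.0350 CPM in siUSP9X at 3 counts per group. The difference between groups was not detectable at this depth for S100A14 and S100P.

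The low values of siUSP9X replicate 2 were shared by the family. That library held the lowest value of all 10 for each of the 8 tested members, and the summed CPM of the 10 genes there was 445, beside 1469 to 1708 for siUSP9X replicates 1, 3, 4 and 5 and 1587 to 2053 for siCtrl. Relative to the mean of the other 4 siUSP9X libraries, its log2 ratio was -1.38 for S100A2, -1.20 for S100A3, -1.42 for S100A16, -1.69 for S100A10, -1.81 for S100A11, -2.16 for S100A6 and -2.80 for S100A13. Transcript length moved with this ratio over all tested genes. The log2 fold change between the groups moved with length too, both with and without that library. The median log2 ratio was -0.80 for 919 genes with a longest transcript of up to 1000 bases, -0.74 for 2093 genes of up to 2000 bases, -0.23 for those of up to 4000, 0.39 for those of up to 8000 and 0.91 for 1125 genes over 8000 bases. S100 transcripts are short, with longest forms of 594 bases for S100A11 to 2184 for S100A13, and each of the 7 lay below the median of its own length bin. An offset fitted to transcript length in each library, added after the data were seen, gave log2 fold changes of -2.01 for S100A2, -0.85 for S100A3, -0.53 for S100A10, -0.41 for S100A6 and 0.063 for S100A11, and 3 members, S100A2, S100A3 and S100A10, were then lower, beside 12.3% of 13868 genes called (6.01% lower and 6.32% higher). With that offset and without siUSP9X replicate 2, 5 members were lower and 1, S100A11 at 0.22, was higher, beside 26.9% of 14020 genes called (14% lower and 12.9% higher).

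**Figure D3:**
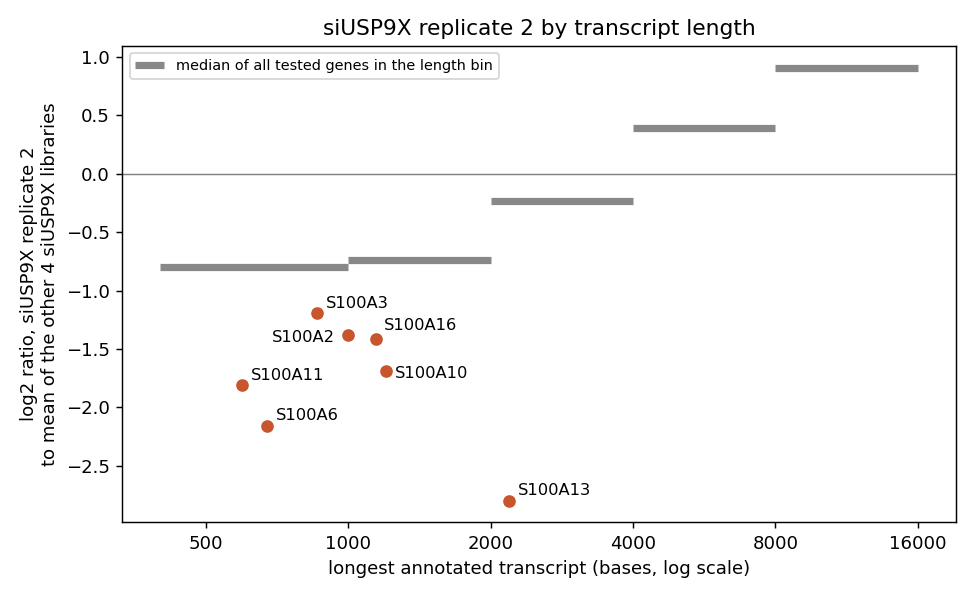
Log2 ratio of siUSP9X replicate 2 to the mean of the other 4 siUSP9X libraries (vertical axis) against the longest annotated transcript in bases (log axis), for 7 S100 genes (points) and as the median over all tested genes in 5 length bins (grey lines; the first and last bin are open-ended). The medians go from -0.80 for the shortest to 0.91 for the longest genes, and the S100 genes lie between -1.20 and -2.80.

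Shares within the family compare members inside a library, where the depth cancels. S100A2 made up 1.69, 2.07, 1.996, 1.97 and 2.01% of the summed S100 CPM in siCtrl replicates 1 to 5 and 0.751, 0.745, 0.450, 0.609 and 0.391% in siUSP9X replicates 1 to 5. Replicate 2 was no exception here, and the groups did not overlap. S100A10 made up 20.4 to 26.2% in siCtrl and 17.5 to 20.04% in siUSP9X, just without overlap. S100A11 took 24.0 to 27.8% in siCtrl and 30.8 to 34.9% in siUSP9X, again without overlap in any library, and S100A16 took 12.5 to 15.2% and 15.1 to 21.1%, with overlap. S100A6 had 29.8 to 35.6% and 24.0 to 32.4%. The highest siUSP9X shares of S100A10 and S100A16 and the lowest of S100A6 were those of replicate 2. Without it the siUSP9X shares were 17.45 to 19.25% for S100A10, 15.1 to 16.6% for S100A16 and 27.6 to 32.4% for S100A6. A difference tied to transcript length need not cancel in shares as depth does. The shares of a library are tied together, so a share also moves when another does. Their differences between the groups were not tested, and they do not show which members stayed the same.

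**Figure D4:**
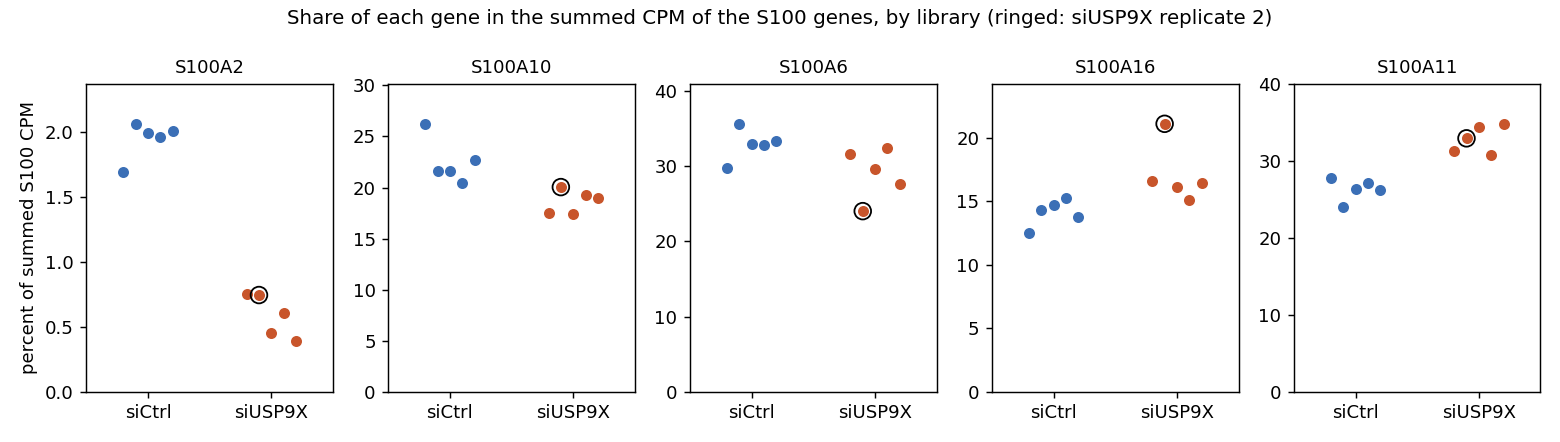
Percent of the summed S100 CPM taken by S100A2, S100A10, S100A6, S100A16 and S100A11 in each library (points, siCtrl blue, siUSP9X orange, siUSP9X replicate 2 ringed), each panel on its own linear axis from 0. The shares of S100A2 (1.69 to 2.07% against 0.391 to 0.751%) and S100A11 (24.0 to 27.8% against 30.8 to 34.9%) do not overlap between the groups.

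The other 11 S100 genes searched for were nearly silent. S100A1, tested with siCtrl at 0.635 ± 0.153 CPM and siUSP9X at 0.681 ± 0.345 CPM, had a log2 fold change of 0.088 ± 0.40 and did not pass the threshold. S100A5 had 31 and 21 counts in the groups. The myeloid genes S100A8 and S100A9 had 2 and 5 counts in siCtrl and 0 each in siUSP9X, S100A7 had 0 and 2, and 6 genes, among them S100B and S100A12, had 0 counts in every library.

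Annexins are the best-known calcium-dependent partners of the family, and 10 of 13 were tested. Of these, 2 fell and 0 rose (edgeR, against 3.22% and 4.09% of all tested genes), with a median log2 fold change of -0.13. ANXA2, which encodes the partner of S100A10, had 1547, 2031, 1816, 1861 and 1716 CPM in siCtrl replicates 1 to 5 and 1338, 859, 1302, 1360 and 1251 CPM in siUSP9X replicates 1 to 5, without overlap. Its log2 fold change was -0.55 ± 0.13 (edgeR adjusted p = 0.0322) and -0.45 without siUSP9X replicate 2. A near-identical copy, ANXA2P2, held 10895 and 6046 counts beside 181211 and 104222 of ANXA2, so part of the reads may be split between them. ANXA7, a membrane-fusion annexin, went from 183 ± 8.14 to 141 ± 5.22 CPM (SD, n = 5), a log2 fold change of -0.37 ± 0.082 (edgeR adjusted p = 0.0209). The calls on annexins ranged from 0 to 2 lower over the fits that left out 1 library.

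The ratio of S100A10 to ANXA2 overlapped between the groups. S100A10 CPM per ANXA2 CPM was 0.269, 0.219, 0.204, 0.190 and 0.232 in siCtrl replicates 1 to 5 and 0.195, 0.104, 0.216, 0.242 and 0.223 in siUSP9X replicates 1 to 5. Outside replicate 2, the siUSP9X ratios lay within the siCtrl range of 0.190 to 0.269. The means were 0.223 ± 0.0303 (SD, n = 5) and 0.196 ± 0.0542 (SD, n = 5), or 0.219 ± 0.0194 (SD, n = 4) without that library. The ratio compares read counts and is not corrected for length.

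Of 38 other partners, receptors and ligands of S100 proteins, 29 were tested, and 4 fell and 1 rose (edgeR, where 3.22% and 4.09% of all tested genes did), with a median log2 fold change of -0.13. PLAT, which encodes tissue plasminogen activator, the protease that the S100A10 and annexin A2 complex binds, had 69.5, 93.7, 81.0, 96.9 and 100.4 CPM in siCtrl replicates 1 to 5 and 49.2, 25.2, 49.0, 49.7 and 38.3 CPM in siUSP9X replicates 1 to 5. The groups did not overlap, and the log2 fold change was -1.06 ± 0.19 (edgeR adjusted p = 0.00856), or -0.92 without siUSP9X replicate 2. MYH9, the non-muscle myosin heavy chain that S100A4 binds, fell by 0.64 ± 0.12 on the log2 scale, ASIC1, an acid-sensing channel, by 0.64 ± 0.14 and the transglutaminase TGM2 by 0.50 ± 0.12 (SE, edgeR adjusted p = 0.0126, 0.0193 and 0.0346). AHNAK2, named after its value was seen, was the gene that rose (0.86 ± 0.23, edgeR adjusted p = 0.0428), with 453 CPM in siUSP9X replicate 2, where the other 4 of that group had 206 to 259. Leaving out siUSP9X replicate 2 gave 9 lower and 3 higher, beside 11.5% and 11.9% of all tested genes, and leaving out another library 2 to 4 lower and 0 to 1 higher.

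Further partners did not pass the threshold. AHNAK, a giant scaffold bound by the S100A10 and annexin A2 complex, had 1537 to 3125 CPM in siCtrl and 2489 to 2976 CPM in siUSP9X apart from replicate 2 at 7811 CPM. The S100A6-binding protein gene CACYBP had 179 ± 19.1 CPM in siCtrl and 163 ± 3.85 in siUSP9X (SD, n = 5). The receptor genes AGER, which encodes RAGE, and TLR4 were low, at 1.67 ± 0.344 and 1.21 ± 0.720 CPM for AGER and 5.39 ± 0.291 and 8.53 ± 4.26 CPM for TLR4 (SD, n = 5).

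Among 49 EF-hand genes outside the family, 33 were tested, and 2 fell and 1 rose (edgeR, where 3.22% and 4.09% of all tested genes did), with a median log2 fold change of -0.019. EFHD2, an actin-binding EF-hand protein, fell from 240 ± 24.5 to 88.1 ± 21.4 CPM (SD, n = 5; log2 fold change -1.44 ± 0.18, edgeR adjusted p = 0.00100). PEF1, of the penta-EF-hand family, fell by 0.45 ± 0.12 on the log2 scale and PPP3R1, the calcium-binding subunit of calcineurin, rose by 0.54 ± 0.13 (edgeR adjusted p = 0.0471 and 0.0307). Without siUSP9X replicate 2 there were 7 lower and 6 higher, beside 11.5% and 11.9% of all tested genes, and without any other library 1 to 2 lower and 0 to 1 higher.

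Genes that flank the family on the chromosomes were looked at next. Of 25 protein-coding genes within 200 kb of a member, 15 were tested and 0 passed the threshold with edgeR or with DESeq2. Of all 13934 tested genes, 3.22% were lower and 4.09% higher with edgeR, and 1078 lower and 1264 higher with DESeq2. An unadjusted edgeR p under 0.05 was reached by 2 of the 15, beside 3877 of all tested genes. The median log2 fold change of the 15 was 0.0. With so few genes, 0 calls do not show that the neighbours were unaffected. The 3 most abundant were ILF2 (-0.19 ± 0.093), MRFAP1 (-0.016 ± 0.13) and CHTOP (-0.28 ± 0.13, log2 fold change and SE). CHTOP starts beside S100A13.

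The genes whose log2 CPM followed a member most closely over the 10 libraries were sought among 10559 tested genes with a mean of at least 5 CPM. For S100A2 these were CD81, a tetraspanin, EFHD2 and the sorting nexin SNX12, with Pearson r of 0.993, 0.992 and 0.992, and 0.993, 0.988 and 0.988 without siUSP9X replicate 2. For S100A6 they were RPL35, a ribosomal protein gene, and COX6B1 and COX5B, subunits of cytochrome c oxidase (0.997, 0.997 and 0.996, and 0.974, 0.974 and 0.977 without that library). The points of each r share the 10 libraries and their depth, and both groups are pooled, so a difference between the groups enters each r. Between S100A2 and S100A6 themselves r was 0.75, and between S100A6 and S100A13 it was 0.99. Without siUSP9X replicate 2 these were 0.766 and 0.886. Between S100A6 and S100A11 r was 0.927 with that library and -0.144 without it.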

How the data were processed

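The authors deposited 1 table of whole-number counts per gene symbol with 1 column per library. Per the submitters' processing notes, the genome build was hg38, and the tools listed, without roles or versions, are RSEM and DESeq2. The sources used here do not say whether the counts are rounded RSEM estimates, nor name an aligner. Per the labels' protocols, RNA was taken with TRIzol and made into stranded mRNA libraries. Symbols were matched to GENCODE release 29 (96.91% of lines to 1 gene). Lines naming no gene numbered 0. Groups and replicate numbers come from the sample titles.

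Counts were tested with edgeR 4.0.16 (R 4.3.3): filterByExpr with a minimum count of 10, TMM factors, glmQLFit with robust estimation and glmQLFTest, group as the only term, two-sided p adjusted by Benjamini-Hochberg over all tested genes, threshold 0.05. SE is the absolute log2 fold change over the square root of F. CPM are counts per 1e+06 of the TMM-scaled total. On counts simulated for this comparison (13767 genes run), the test called 13 of 64 genes changed 1.5-fold, 49 of 65 changed 2-fold, 65 of 65 changed 4-fold and 11 of 13573 unchanged. Genes were simulated independently, with the same mean per gene in all libraries of a group apart from depth. No simulated library stood apart as siUSP9X replicate 2 did, so these rates may not hold for the real libraries. Libraries of a group differed beyond sampling noise (lowest chi-square per degree of freedom 5.25) and each counted as 1 sample.

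The members, gene lists and rules were chosen with earlier results of these data known. The genes named were every member, USP9X, up to 4 genes per list with the smallest p past the threshold (or the 3 most abundant where none passed), ANXA2, AHNAK, CACYBP, AGER, PLAT and TLR4 in any case, and the 3 genes most like the member with the largest change and the one with the highest CPM. Alternatives were DESeq2 1.42.0 and its size factors, upper-quartile factors, library totals, no filter, 5 CPM in 5 libraries, limma-voom (limma 3.58.1), a replicate block, a threshold of 0.01, each library left out and, chosen after seeing the data, a lowess offset for transcript length.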

Additional observations from a re-analysis of the deposited data

Results flagged for a closer look

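In 70 groups of 5 values, 13 had a library far from the other 4 by Dixon's test, and all 13 were siUSP9X replicate 2. The test flags about 1 in 20 independent groups by chance, but these groups are not independent. They reuse the same libraries, the sum holds its own members, and RPL35, COX6B1 and COX5B were picked for following S100A6. The 13 therefore cannot be set against that rate. It lay below the other siUSP9X libraries for S100A10 (89.3 against 260 to 329 CPM), S100A11 (147 against 466 to 556), S100A13 (3.71 against 22.1 to 29), S100A16 (94.0 against 241 to 260) and the summed CPM of the 10 S100 genes (445 against 1469 to 1708). Among other genes named it was low for ANXA2 (859 against 1251 to 1360 CPM), ILF2 (234 against 277 to 289), MRFAP1 (177 against 266 to 279), RPL35 (134 against 636 to 823), COX6B1 (23.5 against 75.1 to 92.4) and COX5B (11.8 against 52.5 to 65.7). It was high for AHNAK (7811 against 2489 to 2976 CPM) and AHNAK2 (453 against 206 to 259). The cause was not tested.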

How the results depend on the processing

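S100A2 stayed lower and past the threshold in every alternative run, from -2.37 to -1.92 on the log2 scale. With the replicate block it was only just past the threshold. All these fits reuse values that were known when the members were listed, so they are no separate support. Fold changes of the other tested members kept their sign except S100A11 (0.063 with the transcript-length offset, 0.22 with it and without siUSP9X replicate 2, and -0.17 to 0.15 with 1 library left out) and S100A16 (0.088 with that offset and without that library, and -0.26 to 0.0075 with 1 left out).

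Members lower numbered 2 of 9 without a filter and 2 of 8 with DESeq2, against 1 of 8. They numbered 3 of 8 with the transcript-length offset and 5 of 8 with it and without siUSP9X replicate 2 (then 1 higher, S100A11). Over all 13934 tested genes there were 570 higher and 449 lower, 1264 and 1078 with DESeq2 and 102 and 136 at a threshold of 0.01. Library totals gave 683 and 430, and upper-quartile factors 596 and 485. Without a filter there were 389 and 328 of 30638. With the transcript-length offset there were 876 and 833 of 13868, and 1807 and 1963 of 14020 with it and without siUSP9X replicate 2. With 1 library left out, 170 to 1674 genes were higher and 189 to 1620 lower, the highest without siUSP9X replicate 2. Members lower were then 1 to 4, annexins lower 0 to 2, partners higher 0 to 3 and lower 2 to 9 and EF-hand genes higher 0 to 6 and lower 1 to 7.

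Partners numbered 2 higher and 6 lower with DESeq2, 0 higher and 1 lower at 0.01, 2 and 7 with the offset and 4 and 10 with it and without siUSP9X replicate 2. Annexins lower numbered 1 with library totals, without a filter and with the offset, and 0 at 0.01. With the offset and without siUSP9X replicate 2, 3 annexins were lower and 1 was higher. EF-hand genes numbered 2 higher and 1 lower with library totals, 0 and 1 without a filter, 3 and 6 with DESeq2, 0 and 1 at 0.01, 3 higher with the offset and 8 and 7 with it and without siUSP9X replicate 2, and 1 lower with upper-quartile factors. Locus neighbours numbered 1 higher with the offset and without siUSP9X replicate 2.

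With the replicate block 34 genes were higher and 57 lower, with 0 annexins lower, 0 partners higher and 0 lower, and 0 EF-hand genes higher and 1 lower. Same-numbered libraries share a number in their sample titles, and the correlations of their deviations were -0.37, -0.42, -0.029, 0.23 and -0.038. Only for replicate 4 was the same-numbered siUSP9X library the best match of the siCtrl library. With siUSP9X replicate 2 standing apart, these values cannot settle whether the libraries were paired. With the longest transcript as length, S100A6 and S100A11 exchanged places in siCtrl and no other members did. Depth limits S100A4, S100A14 and S100P most, at under 1 CPM.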
